A study of Mus musculus with 3 samples.

Results

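Messenger RNA of 10 genes of MHC class I antigen presentation (B2m, H2-K1, H2-D1, Tap1, Tap2, Tapbp, Psmb8, Psmb9, Psmb10 and Nlrc5) was measured in mouse regulatory T cells. The genes were chosen by name, as the core of the pathway and a transcriptional regulator of class I promoters, out of 22457 genes in the deposited tables. All 10 were present there. The cells were primary regulatory T cells (Treg cells, a CD4 lineage that holds immune responses in check) from the adult male mouse at 4 months, with the number of animals not given in the labels. Polyadenylated RNA was sequenced in 3 libraries, numbered here by the technical replicate numbers of the labels, which assign all of them to a single biological replicate. The labels name no treatment, engineered allele or strain, so there is 1 group and no contrast between conditions. The SD given with each mean is therefore a spread between libraries of that replicate and, as far as the labels go, carries no information on other animals.

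Class I molecules show the contents of a cell to CD8 T cells. Proteasomes cut cytosolic proteins into peptides, the TAP transporter moves the peptides into the endoplasmic reticulum, and tapasin helps load them onto a heavy chain paired with beta-2 microglobulin. Interferon gamma is known to raise the whole set, and the NOD-like protein Nlrc5 acts in the nucleus as a transactivator of class I promoters. Nearly all nucleated cells make class I molecules, and T cells, in which Nlrc5 is well expressed, make much of them.

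The class I promoters are known for a compact row of regulatory elements, and the windows of the 3 genes that form the surface molecule are shown together with the window between Tap1 and Psmb9, which start head to head. These are RefSeq windows on GRCm38.p6, from 250 bases before to 50 bases after the annotated start, read 5′ to 3′ on the strand of the gene. They lie at chr2:122147437-122147736 (plus strand, B2m), chr17:34000298-34000597 (minus strand, the upstream of the RefSeq starts of H2-K1), chr17:35262844-35263143 (plus strand, H2-D1) and chr17:34187306-34187605 (plus strand, Tap1). Capitals mark matches on either strand to 5 motifs, which were chosen after the windows had been read.
B2m: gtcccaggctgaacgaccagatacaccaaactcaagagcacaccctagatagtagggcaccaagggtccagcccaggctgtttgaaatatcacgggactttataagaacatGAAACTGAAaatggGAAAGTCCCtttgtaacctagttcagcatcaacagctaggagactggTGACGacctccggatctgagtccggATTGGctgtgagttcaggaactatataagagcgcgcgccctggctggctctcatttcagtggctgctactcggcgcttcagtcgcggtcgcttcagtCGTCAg
H2-K1: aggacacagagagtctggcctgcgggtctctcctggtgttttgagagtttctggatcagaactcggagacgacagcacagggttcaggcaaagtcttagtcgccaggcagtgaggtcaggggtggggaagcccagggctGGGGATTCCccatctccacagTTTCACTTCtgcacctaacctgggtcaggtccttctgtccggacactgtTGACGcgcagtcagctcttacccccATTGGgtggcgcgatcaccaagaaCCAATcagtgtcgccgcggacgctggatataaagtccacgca
H2-D1: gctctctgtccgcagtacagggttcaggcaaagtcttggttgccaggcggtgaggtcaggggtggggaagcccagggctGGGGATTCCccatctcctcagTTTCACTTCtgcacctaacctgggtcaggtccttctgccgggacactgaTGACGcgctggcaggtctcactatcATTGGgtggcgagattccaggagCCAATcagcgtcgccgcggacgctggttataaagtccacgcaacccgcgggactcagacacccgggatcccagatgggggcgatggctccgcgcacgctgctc
Tap1: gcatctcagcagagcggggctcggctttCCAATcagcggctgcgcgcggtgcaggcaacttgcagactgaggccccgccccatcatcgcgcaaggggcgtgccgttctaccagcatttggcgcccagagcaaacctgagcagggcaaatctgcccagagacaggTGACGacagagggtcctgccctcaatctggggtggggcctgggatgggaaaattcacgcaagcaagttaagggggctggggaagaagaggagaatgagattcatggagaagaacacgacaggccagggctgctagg

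The motifs were GGGNNTTNC for the binding sites of NF-kappaB, GAAANNGAA and GAANNGAAA for interferon-stimulated response elements, TGACG for the core of the X2 box and CCAAT for the Y box, each searched on both strands. In the windows printed above, no match of 1 motif overlapped a match of another. Of the 10 genes, 8 had a RefSeq window, and Tap2 and Nlrc5 are named only. The NF-kappaB letters stood in the windows of B2m, H2-K1 and H2-D1, and in 15.2% of all 32851 windows of this length. GAAANNGAA stood in B2m, as in 8.56% of all windows, and GAANNGAAA in H2-K1 and H2-D1, as in 7.52%. TGACG was found in 5 of the 8 genes (B2m, H2-K1, H2-D1, Tap1 and Psmb9), against 20.8% of all windows, and CCAAT in 6 of the 8 (the same 5 genes and Tapbp), against 37.4%. The windows of Psmb8 and Psmb10 held none of these letters. The H2-K1 and H2-D1 windows were 88.3% identical over 239 aligned bases and shared an unbroken run of 47 bases that holds the NF-kappaB letters. The Tap1 and Psmb9 starts lay 226 bases apart in RefSeq, and their windows shared 275 bases, so that the printed Tap1 window is nearly the Psmb9 window read from the other strand. The TGACG and CCAAT matches of Tap1 and Psmb9 are the same bases, so each of these sites is counted for both genes above. A match is a description of the letters only.

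Library totals were 3316275, 3079004 and 2782259 counts in libraries 1, 2 and 3. For the Treg label, 7 listed T cell and Treg genes were looked up. All were detected, among them Foxp3 at 142 ± 6.17 CPM (each gene's counts scaled to a library total of 1000000, mean ± SD, n = 3 libraries). Their detection is not a test of the label. Of 54 markers of B, plasma, myeloid, dendritic, CD8 T, NK, erythroid and stromal or epithelial cells, 25 were detected, Clec9a, Pdgfra and Krt8 were among those with no count in any library, and the whole list held 0.149% (library 1), 0.177% (library 2) and 0.174% (library 3) of the counts. Ighm, named after its values were seen, held more of these counts than any other marker, at 894, 960 and 1044 CPM in libraries 1, 2 and 3. Cells of the other types make class I molecules as well, and the share of each gene's counts that came from them was not tested. In bulk RNA, fewer cells of a type and less RNA per cell cannot be told apart.

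All 10 genes were detected, meaning 1 CPM or more in every library, as were 47.3% of all 22457 genes. Per length they stood high among detected genes. Their median level was 480.5 CPM per kb of coding sequence, against 31.7 over the 10542 detected genes with a coding length. Together they took 0.520% of the counts in library 1 and 0.561% in both other libraries. Levels are compared between genes only on this scale of CPM per coding kb, and CPM without length is used for each gene across libraries.

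**Figure D1:**
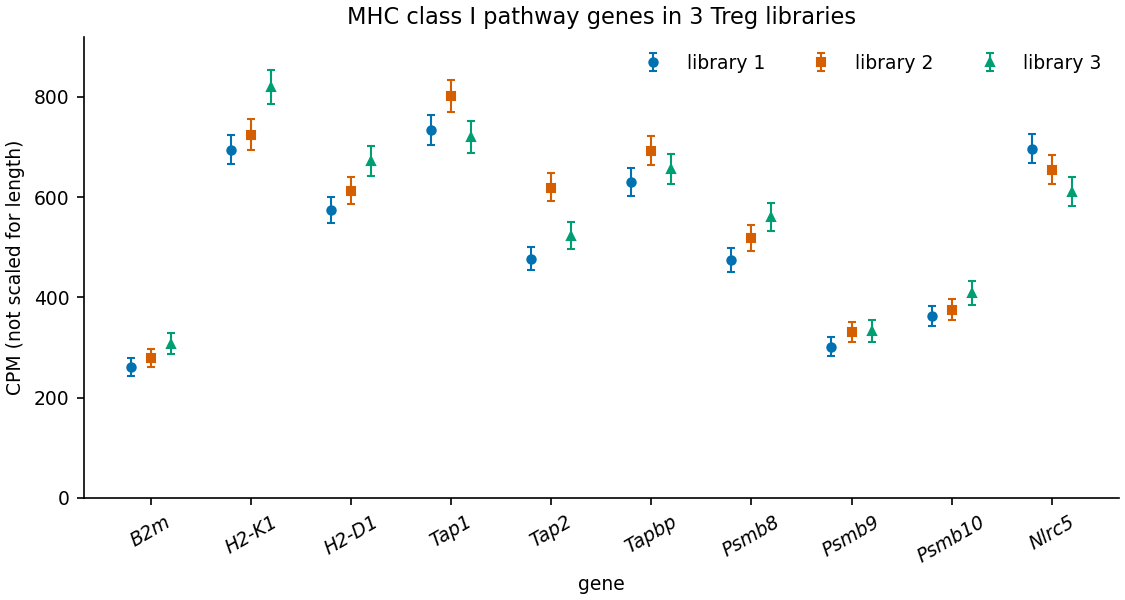
Level of each gene in CPM, not scaled for length, in libraries 1, 2 and 3 of the Treg cells; points are single libraries and bars are exact 95% Poisson intervals, which cover counting error only. For Tap2 the interval of library 2 (592 to 647 CPM) lies above those of libraries 1 and 3.

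The light chain gene B2m (chromosome 2, 122147686 to 122153083, plus strand, GRCm38) encodes beta-2 microglobulin, the small subunit without which class I molecules do not reach the surface stably. It had 864, 858 and 856 counts in libraries 1, 2 and 3, which are 261, 279 and 308 CPM. The counts were nearly the same in all libraries although the totals differed 1.19-fold between libraries 1 and 3, so the CPM was lowest in the library with the most counts. Per coding kb, B2m had the highest mean of the 10 genes, at 791 ± 66.6 CPM per kb (SD, n = 3 libraries). None of its coding 31-mers (all stretches of 31 bases of the coding sequence) occurred in a transcript of another gene.

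H2-K1 and H2-D1 encode classical heavy chains, the polymorphic chains that hold the peptide, and lie at opposite ends of the main part of the MHC on chromosome 17 (33996017 to 34000347, minus strand, and 35262730 to 35267499, plus strand). H2-K1 had 2305, 2231 and 2279 counts in libraries 1, 2 and 3 (695, 725 and 819 CPM). H2-D1 had 1902, 1887 and 1869 counts (574, 613 and 672 CPM). As for B2m, the counts were near-equal, and library 1 was lowest and library 3 highest in CPM. Per coding kb the mean levels were 674 ± 58.5 CPM per kb for H2-K1 and 570.3 ± 45.5 for H2-D1. The ratio of H2-K1 to H2-D1 per coding base was 1.19, 1.16 and 1.20 in the 3 libraries, with exact Clopper-Pearson intervals (95%) of 1.12 to 1.26, 1.09 to 1.23 and 1.12 to 1.27.

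Both heavy chain values are uncertain, because class I genes resemble each other. Of the coding 31-mers, 30.9% of H2-K1 and 41.0% of H2-D1 also stood in transcripts of other genes, and 234 of them were common to the pair. How reads with several matches were counted is not given in the sources used here. With only the 31-mers found in no other gene as the length, the ratio of H2-K1 to H2-D1 was 1.01, and both genes (1003 and 994 per kb) stood above B2m (863). Only the length changed here and every count was kept, so these values assume that no read on a shared 31-mer was counted. The strain is not given in the sources used here, and class I genes differ between strains, while the coordinates and sequences above are those of the C57BL/6J reference.

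Tap1 and Tap2 encode the subunits of the transporter associated with antigen processing, which pumps peptides into the endoplasmic reticulum. Tap1 (chromosome 17, 34187553 to 34197225, plus strand) had 2433, 2468 and 2002 counts in libraries 1, 2 and 3 (734, 802 and 719.6 CPM). Tap2 (34203527 to 34216321, plus strand) had 1583, 1906 and 1455 counts (477, 619 and 523 CPM). Tap2 was the gene of the set with the widest spread, 1.30-fold between the highest and the lowest library in CPM. Its Poisson interval in library 2 was 592 to 647 CPM and overlapped neither that of library 1 (454 to 501) nor that of library 3 (496 to 551). Unlike in B2m and the heavy chains, the counts themselves differed between libraries, and library 3 had the fewest counts of both transporter genes.

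The mean level per coding kb was 346 ± 20.2 for Tap1 and 256 ± 34.3 for Tap2 (CPM per kb). The Tap1 to Tap2 ratio per coding base was 1.49 in library 1 (interval 1.40 to 1.59), 1.26 in library 2 (1.18 to 1.33) and 1.33 in library 3 (1.25 to 1.43), so the interval of library 1 did not overlap that of library 2. The ratio depends on the length used. It was 0.968 with the union of all exons and 1.04 with unshared 31-mers, with every count kept in both cases. Of the coding 31-mers, 25.1% of those of Tap2 and 2.05% of those of Tap1 stood in transcripts of other genes. Most of the shared Tap2 31-mers belonged to the antisense transcript Gm15821, which overlaps 533 exon bases of Tap2 and had 1, 0 and 0 counts in libraries 1, 2 and 3. Whether counting used strand is not given in the sources used here, so reads of the antisense transcripts and of Tap2 cannot be told apart.

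Tapbp encodes tapasin, which bridges the transporter and the empty class I molecule (chromosome 17, 33915899 to 33929292, plus strand). It had 2089, 2132 and 1825 counts in libraries 1, 2 and 3 (629.9, 692 and 656 CPM), with library 2 highest as for Tap1 and Tap2. Per coding kb it averaged 472 ± 22.5 CPM per kb. An antisense gene that is not among the files' identifiers, Gm19412, overlaps 24.9% of its exon bases, and 17.7% of the coding 31-mers were shared with it.

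Psmb8, Psmb9 and Psmb10 encode the catalytic beta subunits of the immunoproteasome, which take the places of the constitutive subunits encoded by Psmb5, Psmb6 and Psmb7 and change the peptides that are cut. Psmb8 (chromosome 17, 34197721 to 34201454, plus strand) had 1572, 1594 and 1558 counts in libraries 1, 2 and 3 (474, 518 and 559.98 CPM). Psmb9 (34181987 to 34187764, minus strand) had 999, 1018 and 925 counts (301, 331 and 332 CPM). Psmb10 (chromosome 8, 105935735 to 105938444, minus strand) had 1202, 1156 and 1137 counts (362, 375 and 409 CPM). Library 1 was lowest in CPM for all 3 subunits, and the counts of Psmb8 varied least. The mean levels per coding kb were 625 ± 51.9 for Psmb8, 489 ± 26.7 for Psmb9 and 467 ± 29.1 for Psmb10 (CPM per kb).

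The constitutive partners were also detected in full. Psmb5 had 327, 325 and 293 counts in libraries 1, 2 and 3, Psmb6 had 942, 915 and 909, and Psmb7 had 600, 607 and 611. Per coding kb these were 130.2 ± 4.98, 424 ± 30.6 and 239.7 ± 23.4 CPM per kb. Each immunosubunit thus stood above its partner on this scale in every library. The ratio was 4.60, 4.69 and 5.09 for Psmb8 to Psmb5 in libraries 1, 2 and 3. It was 1.15, 1.21 and 1.11 for Psmb9 to Psmb6, where the lowest bound of the 3 intervals was 1.01. For Psmb10 to Psmb7 it was 2.03, 1.93 and 1.89.

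These ratios rest on the length used, and the direction of 2 of them changed with it. The share of coding 31-mers that also stood in other genes was 16.3% for Psmb8 and 0% for both Psmb9 and Psmb10, against 84.0% for Psmb5, 17.3% for Psmb6 and 29.2% for Psmb7. With unshared 31-mers as the length, the mean ratio was 0.915 for Psmb8 to Psmb5, 0.960 for Psmb9 to Psmb6 and 1.38 for Psmb10 to Psmb7. With the union of exons, it was 1.33, 0.544 and 3.86 for the same pairs. Every count was kept under each length, so the values with unshared 31-mers assume that no read on a shared 31-mer was counted. How such reads were counted is not given in the sources used here. Psmb10 was above Psmb7 under all 3 lengths.

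**Figure D2:**
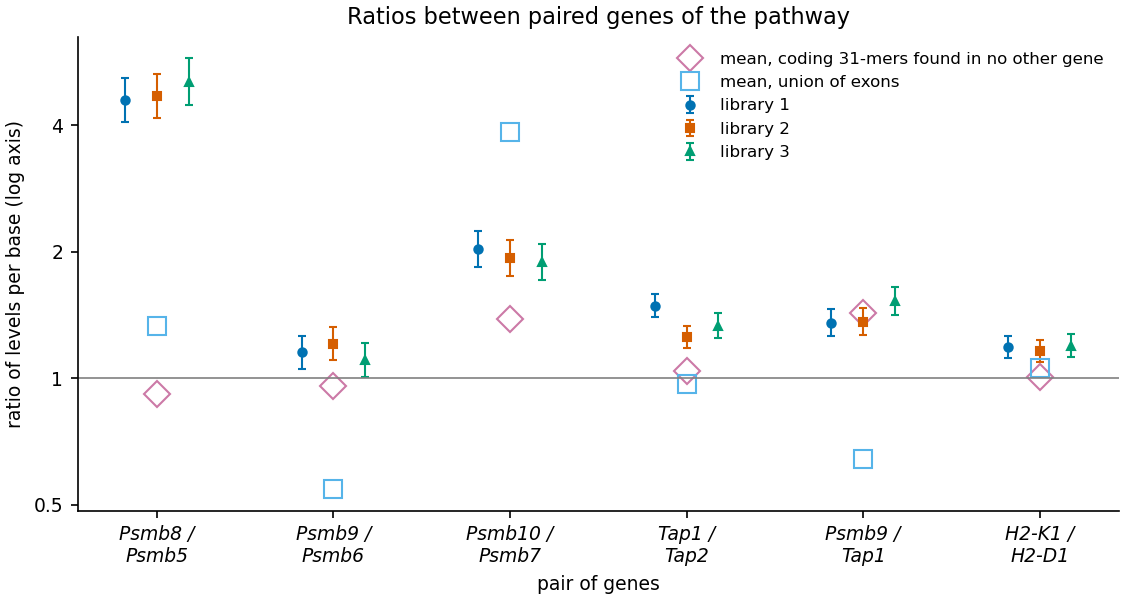
Ratio of the level per coding base of the first named gene to the second (log axis) in each of libraries 1, 2 and 3, with exact 95% Clopper-Pearson intervals; open diamonds and squares are the mean ratio with unshared 31-mers or with the union of exons as the length. Psmb10 to Psmb7 stays above 1 under every length, while Psmb8 to Psmb5 runs from 4.79 down to 0.915. The counts are the same under every length, and how reads on shared 31-mers were counted is not given.

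Psmb9, Tap1, Psmb8 and Tap2 follow each other on chromosome 17 in the class II region of the MHC. In GENCODE M21 the annotated Psmb9 and Tap1 genes overlap by 212 exon bases on opposite strands, Tap1 ends 495 bases before Psmb8, and Psmb8 ends 2072 bases before Tap2. From their shared starting region, Psmb9 stood above Tap1 per coding base, at ratios of 1.36, 1.36 and 1.53 in libraries 1, 2 and 3. With the union of exons as the length, Psmb9 was below Tap1, at a mean ratio of 0.641. The antisense gene Gm20496, not among the files' identifiers, overlaps 14.7% of the exon bases of Psmb8 and 4.36% of those of Tap2.

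Nlrc5 (chromosome 8, 94434356 to 94527272, plus strand) encodes a transactivator of class I promoters. It has by far the longest coding sequence of the set, 5745 bases, against 357 for B2m. It had 2309, 2015 and 1698 counts in libraries 1, 2 and 3 (696, 654 and 610.3 CPM). Library 1 was highest and library 3 lowest, which is the reverse of the order seen for B2m, the heavy chains, Psmb8 and Psmb10. Per coding kb it had the lowest level of the set, at 114 ± 7.48 CPM per kb. None of its coding 31-mers was shared with another gene.

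In the order of levels per coding kb, B2m came first, followed by H2-K1, Psmb8, H2-D1, Psmb9, Tapbp, Psmb10, Tap1, Tap2 and Nlrc5. The ranges over the 3 libraries overlapped between B2m and H2-K1, H2-K1 and Psmb8, Psmb8 and H2-D1, Psmb9 and Tapbp, and Tapbp and Psmb10, but libraries share their scaling across genes. Within each library the order of these pairs held, except that Tapbp was above Psmb10 in 2 of the 3, so that the order of this pair was not resolved. They did not overlap between H2-D1 and Psmb9, Psmb10 and Tap1, Tap1 and Tap2, or Tap2 and Nlrc5, where the mean ratios were 1.17, 1.35, 1.35 and 2.25. Nlrc5 was lowest under all 3 lengths. With the union of exons Psmb9 moved next to Nlrc5 at the bottom, at 87.8 against 77.0 CPM per kb.

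**Figure D3:**
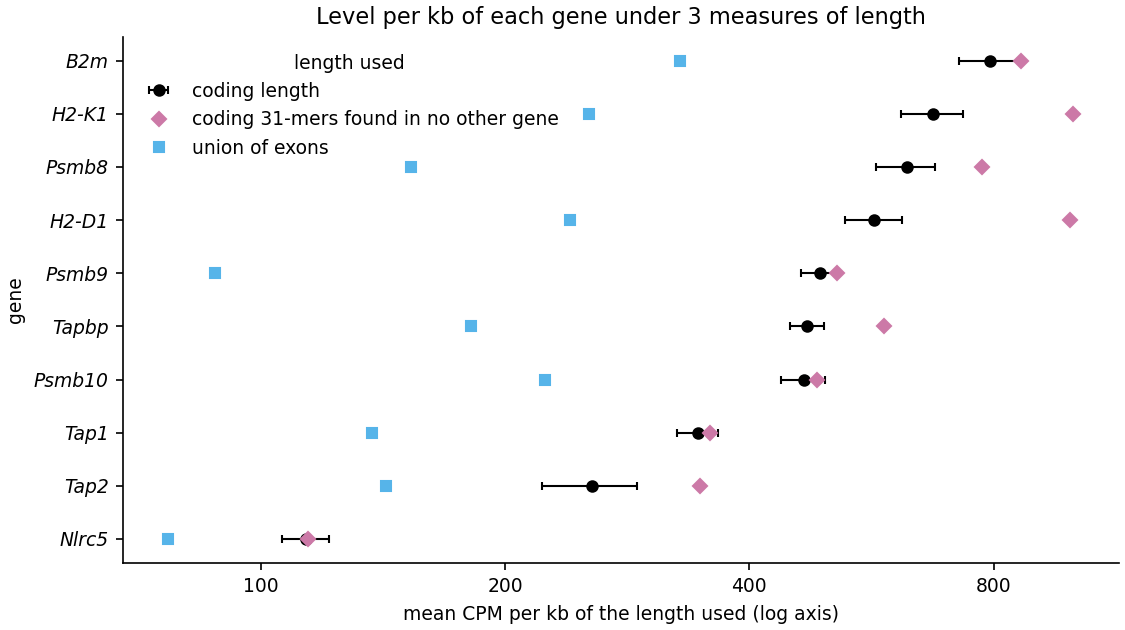
Mean level of each gene in CPM per kb (log axis) with the coding length, the unshared coding 31-mers or the union of exons as the length; bars on the coding-length points are the SD over 3 libraries. B2m leads with the coding length (791), H2-K1 with unshared 31-mers (1003), and Nlrc5 is lowest with each length. The counts are the same under every length.

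The question of whether the libraries differ for these genes was put with a chi-square test of each gene's counts against the library totals, over 10043 genes with 30 or more summed counts. After Benjamini-Hochberg adjustment over all of them, 8 of the 10 members passed, against 22.7% of all genes tested. The share was 53.8% among the 236 genes with at least 1.4 counts per coding base, where all members but Tap1, Tap2 and Nlrc5 lie. The members that did not pass were Psmb9 (chi-square test, adjusted p = 0.142) and Psmb10 (chi-square test, adjusted p = 0.0525). Tap2 had the lowest adjusted p (chi-square test, 6.78e-12), followed by H2-K1 (2.10e-06) and H2-D1 (0.000145). Psmb8 (0.000339), Nlrc5 (0.00234), Tap1 (0.00453), B2m (0.0161) and Tapbp (0.0406) also passed the chi-square test. This test allows for Poisson noise only, and it compares libraries, not conditions. Without library 1, 2 or 3, the number of members that passed was 4, 6 or 3, against 1247 of 9548, 1466 of 9580 or 904 of 9586 genes tested. Tap1 and Tap2 lost their call without library 2, Tapbp without library 1 or 2, H2-K1 and H2-D1 without library 3, and B2m, Psmb8 and Nlrc5 without library 1 or 3. Psmb10 gained a call without library 2 (chi-square test, adjusted p = 0.0304). In the quasi-likelihood test of edgeR, each library was set against the others with the spread between libraries allowed for, and 0 of the 10 passed, against 0.395% of 9620 genes in any library (0.114%, 0.052% and 0.281% for libraries 1, 2 and 3 taken singly). None reached an unadjusted p under 0.05 by edgeR (lowest 0.0641, Tap2 in library 2) or by DESeq2's Wald test. Each of these contrasts has a single library on 1 side and takes the spread from the others, so a gene that does not pass says little about its chi-square call.

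The passing genes fall into groups by how their counts behaved. B2m, H2-K1, H2-D1 and Psmb8 had counts that differed by at most 1.02-fold between libraries 1 and 3, where the totals differed 1.19-fold, and so passed the test by varying less than the totals. Tested against equal counts in all libraries, a comparison added after the counts were seen, these genes had chi-square adjusted p-values of 0.988, 0.658, 0.912 and 0.876. The same test gave 0.169 for Psmb9 and 0.517 for Psmb10. Tap1, Tap2, Tapbp and Nlrc5 differed from equal counts as well (chi-square test, adjusted p = 6.55e-12, 2.35e-13, 1.11e-05 and 4.99e-19), so 4 of 10 members passed, against 36.5% of all genes tested. Between libraries 1 and 3 their counts differed 1.22-fold, 1.09-fold, 1.14-fold and 1.36-fold.

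Count density moved with this pattern only in part. Density, the average count per base of coding sequence, was 2.41 counts per coding base for B2m, 2.05 for H2-K1, 1.90 for Psmb8 and 1.74 for H2-D1, between 1.42 and 1.49 for Psmb10, Tapbp and Psmb9, and 1.06, 0.783 and 0.349 for Tap1, Tap2 and Nlrc5. Tapbp, at 1.44, differed from equal counts in the test above, whereas Psmb10 (1.42) and Psmb9 (1.49), on either side of it, did not. B2m stood above 99.9% of detected genes in density and Nlrc5 above 79.8%. Over all tested genes, the median ratio of counts in library 1 to library 3 was 1.04 for the 236 genes with a density of at least 1.4, against 1.20 for the 6583 genes under 0.2. The densest genes of the set were thus highest in CPM where the library total was lowest, and the part of density in these results was not tested. How duplicate reads were handled is not given in the deposited notes, and its part in the near-equal counts, and so in the CPM and per-kb levels of these genes, was not tested either.

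**Figure D4:**
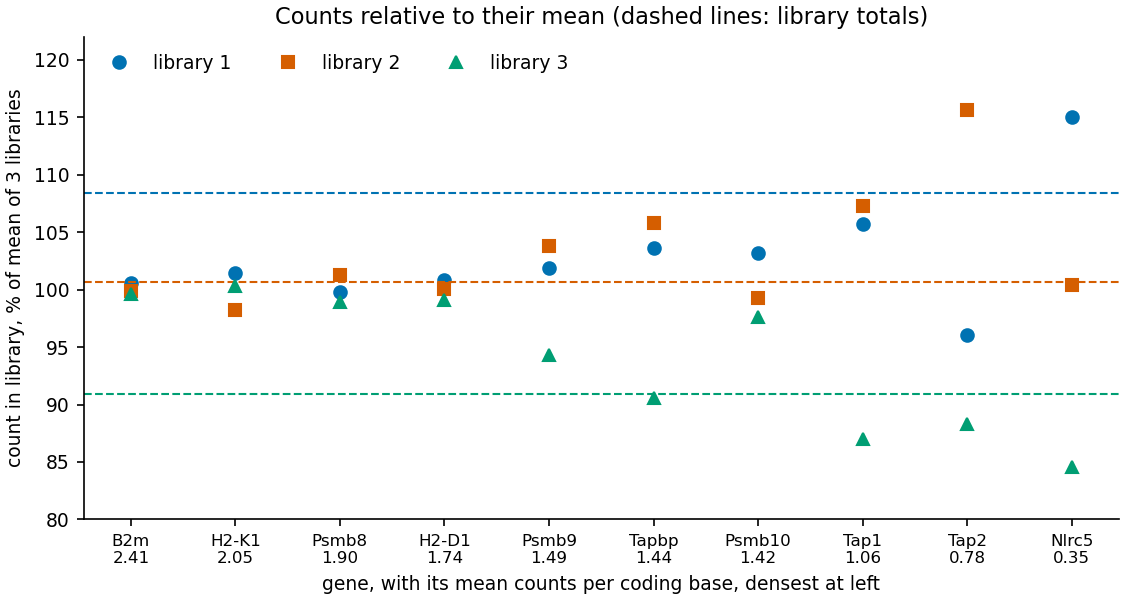
Count of each gene in each library as a percentage of its mean over the 3 libraries, with genes ordered by counts per coding base; dashed lines give the library totals on the same scale. The 3 points of B2m, H2-K1, Psmb8 and H2-D1 lie close together, whereas those of Tap1, Tap2 and Nlrc5 lie as far apart as the totals or farther. Those of Tapbp lie farther apart than those of Psmb10 and Psmb9, which have a similar density.

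Other genes of the pathway were examined by list. Each list's count of genes past the chi-square test is to be read against the 22.7% of all genes tested. That share rose with density, from 19.4% under 0.2 counts per coding base to 53.8% at 1.4 or more. The proteasome activator and assembly list was detected in full (4 of 4), and 1 member differed between libraries by the chi-square test. Pomp, a proteasome assembly chaperone, led per coding kb at 559 ± 44.6 CPM per kb, ahead of the PA28 subunit genes Psme1 at 487 ± 36.1 and Psme2 at 227 ± 21.2, with Psme3 lowest at 81.7 ± 6.93. Psme1 was the member that passed (chi-square test, adjusted p = 0.0182), with 1144, 1083 and 1098 counts in libraries 1, 2 and 3. The lead of Pomp depends on the length used. With the union of exons it had 0.138 counts per base, below Psme1 (0.502) and Psme2 (0.280). Psme2 is uncertain, as 78.6% of its coding 31-mers were shared.

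All 10 further genes of peptide loading, protein folding and peptide trimming were detected, with a median of 219 CPM per coding kb, and 4 passed the chi-square test. The disulfide isomerase gene Pdia3 (ERp57), a partner of tapasin, was highest at 653 ± 51.5 CPM per kb. It was followed by the chaperone genes Hspa5 at 589.9 ± 33.5 and Calr (calreticulin) at 419.7 ± 9.53. The glucosyltransferase gene Uggt1 (38.0 ± 4.81) and the aminopeptidase gene Lnpep (62.0 ± 3.69) were lowest. Pdia3 and Hspa5 passed with near-equal counts (3030, 3027 and 2975, and 3653, 3526 and 3425, in libraries 1, 2 and 3). Tapbpl, which encodes the tapasin-related peptide editor, and Uggt1 passed with library 3 lowest in counts (965, 974 and 738, and 602, 606 and 425).

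Of 20 other class I and class I-like heavy chain genes, 13 were detected. H2-T23, which encodes Qa-1, had 455 ± 37.2 CPM per coding kb, and the Qa-2 family genes H2-Q7 and H2-Q6 had 288 ± 24.3 and 267 ± 9.73. All were below H2-D1 and H2-K1 on this scale, and all are uncertain, with 51.5%, 72.4% and 53.2% of their coding 31-mers shared. The genes not detected were H2-M9 and H2-M10.1, with no count in any library, H2-T3 with 1, 0 and 0 counts in libraries 1, 2 and 3, H2-M5 with 0, 2 and 0, H2-Q1 with 2, 2 and 0, H2-M2 with 0, 6 and 4, and Hfe with 2, 6 and 3. A count of 0 allows up to 0.905, 0.974 and 1.08 CPM in libraries 1, 2 and 3 (3 counts). H2-T23, H2-Q7 and H2-T24 passed the chi-square test (adjusted p = 0.000896, 0.0130 and 0.0394), 3 of 12 tested.

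Among 25 genes for factors and receptors that act on class I promoters or carry interferon signals, all were detected and 10 passed the chi-square test. Among the highest per coding kb, the receptor chain gene Ifngr1 had 493 ± 22.01 CPM per kb and Irf1, a direct activator of several genes of the set, 355 ± 10.7. Rfxap (5.21 ± 0.871) and Rfx5 (11.1 ± 2.61), subunits of the RFX complex through which Nlrc5 reaches the X box, were lowest. The widest spreads among those that passed were those of Irf7, with 558, 779 and 573 counts in libraries 1, 2 and 3, Irf8, with 226, 265 and 166, and Creb1, with 308, 252 and 188. Of the 10 that passed, 4 were highest in CPM in library 1, 5 in library 2 and 1 in library 3.

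Most of the MHC class II genes, which professional antigen-presenting cells use to show peptides to CD4 T cells, spread farther between the libraries. The ratio of the highest to the lowest library in CPM had a median of 2.06 over the 10 class II genes (1.12 to 4.89). Over the 10 class I pathway genes the median was 1.16 (1.10 to 1.30). Only Cd74 (1.22-fold) and H2-DMa (1.12-fold) lay within the class I range. All class II genes but Cd74 had fewer counts than any class I pathway gene, and counting error widens this ratio more at low counts. The difference between the lists was not tested. Cd74 led the class II list at 606 ± 59.8 CPM per coding kb, followed by H2-DMa at 222 ± 13.3 and H2-Ab1 at 131 ± 70.3, and Ciita (3.74 ± 2.31) and H2-DMb1 (9.36 ± 1.76) were lowest. Ciita, the class II counterpart of Nlrc5, had 13, 59 and 44 counts in libraries 1, 2 and 3, H2-Ab1 had 157, 490 and 293, and H2-DMb2 had 15, 38 and 44. Of the class II list, 8 of 10 passed the chi-square test, 5 of them with library 2 highest in CPM.

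Marker lists of other cells also differed between the libraries. Of the B cell list, 11 of 12 markers were detected, with a sum of 979 CPM in library 1, 1161 in library 2 and 1273 in library 3. Most of each sum was Ighm, named after its values were seen, with 894, 960 and 1044 CPM in libraries 1, 2 and 3. Its counts were near-equal (2966, 2956 and 2904). The other 11 markers, each with a density below 0.5, came to 84.7, 201 and 229.7 CPM. B cell markers and class II genes thus shared a low library 1, whereas the B cell sum was highest in library 3 and the class II sum (808, 1193 and 1128 CPM) in library 2. Myeloid markers, 3 of 12 detected, summed to 58.8 CPM in library 1, 118 in library 2 and 49.2 in library 3. Of these, Itgam, named after its values were seen, gave 39.5, 58.8 and 19.4 CPM, and 96.0% of its coding 31-mers were shared with other genes. Dendritic cell markers, 2 of 8 detected, summed to 79.3, 119 and 86.3 CPM. Most of that sum was Bst2, likewise named afterwards, an interferon-induced gene not restricted to dendritic cells, with 73.0, 96.8 and 74.4 CPM in libraries 1, 2 and 3. The sum of the plasma cell markers, 3 of 5 detected, was highest in library 1, at 305 CPM, against 292 in library 2 and 245 in library 3. Most of it was Prdm1 (225, 204 and 140 CPM in libraries 1, 2 and 3) and Xbp1 (76.3, 79.9 and 73.7), both named after their values were seen. The remaining markers went the other way and were highest in library 3. Jchain had 1.81, 4.55 and 24.4 CPM, Mzb1 0.905, 3.90 and 5.39, and Sdc1 0.302, 0 and 1.44. Among the 10 class I pathway genes, library 1 was lowest for 8, and library 2 was highest for Tap1, Tap2 and Tapbp. The part of other cells in that spread was not tested.

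**Figure D5:**
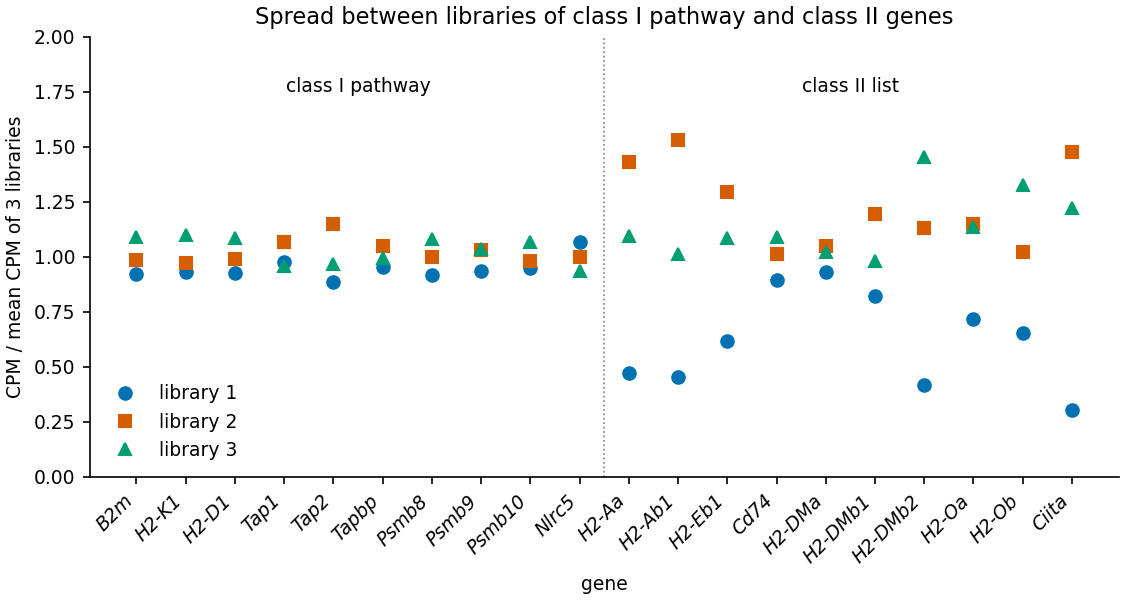
CPM in each library divided by the mean over libraries 1, 2 and 3, for the 10 class I pathway genes and all 10 genes of the class II list. All 10 class II genes and 8 of the 10 class I pathway genes are lowest in library 1. The points of most class II genes spread farther, up to 4.89-fold for Ciita.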

How the data were processed

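The authors deposited raw counts per gene, unscaled, in a separate table for each library. Per the README text deposited beside them, these tables derive from an alignment to mm10 with GENCODE M4. The sources used here do not name the aligner or counter, nor say how strand, duplicates and multiply aligned reads were handled.

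Symbols, positions, the longest coding sequence and the union of exons came from GENCODE M21 (GRCm38, the assembly of mm10), in which 22195 of 22457 identifiers matched. Promoter windows came from RefSeq on GRCm38.p6. Levels are CPM of the library total, or CPM per kb of coding length. The chi-square test (scipy 1.17.1, 2 degrees of freedom, 30 or more summed counts, Benjamini-Hochberg adjustment, threshold 0.05) was tested on simulated data. The simulated counts had Poisson noise only, which the test assumes, so that trial cannot show how the calls behave under wider noise. Alternatives used edgeR 4.0.16 (TMM, quasi-likelihood) and DESeq2 1.42.0. Intervals are exact at 95% and, like the limit of 3 counts, cover counting error only. Totals of 2782259 to 3316275 counts set the precision.

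The members, lists and tests were chosen with earlier results of these data known. Of each list, the text names the 3 highest and 2 lowest genes per coding kb, those not detected, and those past the test, or, where more than 5 passed, the 3 with the widest spread; some of the genes this rule names are not reported here. No gene was searched for by likeness of pattern, since 3 technical libraries give no basis for it.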

Additional observations from a re-analysis of the deposited data

How the results depend on the processing

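All 10 genes were detected with TMM library sizes, at 5 CPM and without any 1 library. Of the members, 8 passed the chi-square test, against 2277 of 10043 genes tested. With TMM or DESeq2 sizes, 7 members passed (all but B2m, Psmb9 and Psmb10), against 2213 or 2201 of 10043 genes. With a minimum of 1 summed count, 7 passed and Tapbp was lost, against 2130 of 15171 genes. With the totals of genes under 0.2 counts per coding base, added after the data were seen, 9 passed, Psmb9 and Psmb10 included but not Nlrc5. Of all genes, 2464 of 10043 passed in that setting. Against equal counts, 4 members and 3669 of 10043 genes passed. The edgeR test called 0 members and 38 genes, and DESeq2's Wald test 0 members and 2 genes. Leaving out 1 library gave 3 to 6 members, and 904 to 1466 genes of the 9548 to 9586 tested. Without library 1 the members were H2-K1, H2-D1, Tap1 and Tap2, and without library 3 they were Tap1, Tap2 and Tapbp. Without library 2, Tap1, Tap2 and Tapbp did not pass, and Psmb10 did. Leaving a library out leaves fewer counts, and the cause was not tested otherwise. Library totals, TMM sizes, DESeq2 sizes and totals of genes under 0.2 counts per coding base gave each member the same highest library, except Psmb9. Psmb9 was highest in library 2 with TMM or DESeq2 sizes and in library 3 with the others. By unscaled counts, B2m, H2-K1, H2-D1 and Psmb10 were highest in library 1, and Psmb8 and Psmb9 in library 2.

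The median level of the members, 480.5 CPM per coding kb, was 167 per kb of exon union and 549 with unshared 31-mers. With the union of exons, the ratios were 1.33 (Psmb8 to Psmb5), 0.544 (Psmb9 to Psmb6), 3.86 (Psmb10 to Psmb7), 0.968 (Tap1 to Tap2), 0.641 (Psmb9 to Tap1) and 1.06 (H2-K1 to H2-D1). With unshared 31-mers as the length and every count kept, they were 0.915, 0.960, 1.38, 1.04, 1.43 and 1.01 in the same order. No paired analysis was possible because the libraries form 1 group.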

Other observations

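B2m had a mean of 859 counts over an exon union of 860 bases, which is 0.999 counts per exon base. Of the 10583 detected genes with an exon length, 44 were at or above this value, and the median was 0.0312. H2-K1, H2-D1 and Psmb10 followed among the 10 genes, at 0.773, 0.731 and 0.683 counts per exon base, and Nlrc5 was lowest at 0.236. The counts of Psmb8, at 0.466 per exon base and 1.90 for each coding base, had a coefficient of variation between libraries of 1.15%. It was 8.25% for Tapbp, at 0.555 per exon base, and 0.484% for B2m.

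The chi-square test passed 53.8% of the 236 genes with at least 1.4 counts for each coding base, where 7 of the 10 members lie, and 19.4% of the 6583 genes under 0.2, where none lie. The median summed count was 3323 in the denser class and 245 in the sparser.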
